A study of Mus musculus with 8 samples.

Results

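A set of 10 genes that encode slow fiber thin filament proteins, slow myosin light chains and their partners was followed in the tibialis anterior (TA), a fast-twitch muscle of the lower leg. The 10 genes are Tnnc1, Tnni1, Tnnt1, Myl2, Myl3, Tpm3, Myoz2, Mb, Csrp3 and Ankrd2. They were taken by gene symbol from the 12551 genes that were counted, and all 10 were present, with at least 33 counts in every mouse. RNA was sequenced from TA muscles of male mice, 4 WT and 4 KL-/-, all 7 weeks of age. KL-/- mice are homozygous for a null allele of Klotho (Kl) that is not limited to a cell type of the muscle, and both genotypes were bred from heterozygotes on a mixed background. Kl was not among the counted genes, so genotypes rest on the labels. Values are counts relative to library size (CPM), scaled with TMM factors and shown as mean ± SD with n = 4 mice per genotype, and fold changes are KL-/- over WT.

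A muscle fiber contracts when calcium binds troponin on the thin filament, tropomyosin moves off the actin sites, and myosin heads with their essential and regulatory light chains pull on actin. Slow (type I) and fast (type II) fibers build this machinery from different genes, and a mouse TA muscle consists almost wholly of fast fibers. The slow versions of troponin C and of the light chains are also used in the heart.

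Slow troponin transcripts rose in KL-/- muscle, from very low levels. Tnnc1, Tnni1 and Tnnt1 increased 2.24-fold, 2.06-fold and 1.89-fold, while the other 7 genes did not pass an FDR of 0.05 in edgeR's quasi-likelihood test. No gene of the 10 fell past that threshold. Among all 12551 genes, 7.23% were higher in KL-/- muscle at this FDR and 6.44% were lower, 13.7% in either direction. Without overlap between the 4 WT and the 4 KL-/- mice were Tnnc1 and Tnnt1 of the 10, where 19.7% of all genes had no overlap. The median log2 fold change was 0.70 over the 10 genes and −0.016 over all genes. WT replicate 1 was the lowest WT mouse in 9 of the 10 genes. Without it, log2 fold changes were smaller, such as 0.99 for Tnnc1, 0.77 for Tnnt1, 1.11 for Myl2 and 0.27 for Csrp3. The genes share these mice, so their fold changes are not separate observations. In 5 of the 10 genes the unadjusted edgeR p lay under 0.05. The share of all genes under that p is not given here, so nothing is read from this count. In bulk tissue, a change in the number of fibers or cells of a type and a change in RNA per cell cannot be told apart.

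Libraries held 20860262 to 26501093 counts in WT and 22061526 to 29273758 in KL-/- muscle, which puts a floor of 3 counts between 0.102 and 0.144 CPM. KL-/- replicate 2 stood apart from its group. Its chi-square per gene against the other KL-/- libraries was 60.4 to 84.5, compared with 17.8 to 27.9 among the other 3 and 9.91 to 45.9 among WT libraries. The library of KL-/- replicate 3 is labelled with its own batch date, so batch and mouse cannot be told apart there. Results that rest on either library are given with and without it. The 6 markers of fast limb muscle (Acta1, Ckm, Myh4, Myh1, Actn3, Pvalb) were all present and summed to 105700 to 123700 CPM in WT and 124200 to 159500 CPM in KL-/- muscle. Myh7, the slow myosin heavy chain that defines type I fibers, had 0.942 ± 0.689 CPM per kb of exon in WT and 2.35 ± 2.97 CPM per kb in KL-/- muscle.

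Promoter sequence is shown for the slow troponins, which rose, and for Csrp3 and Ankrd2, which moved together from mouse to mouse. Each line gives the 250 bases before the RefSeq transcript start (GRCm38.p6, the build of mm10), 5′ to 3′ on the strand of the gene. Capitals mark E-boxes (CANNTG), the sites that myogenic bHLH factors can bind.

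Tnnc1 (chr14:31208062-31208311, plus strand): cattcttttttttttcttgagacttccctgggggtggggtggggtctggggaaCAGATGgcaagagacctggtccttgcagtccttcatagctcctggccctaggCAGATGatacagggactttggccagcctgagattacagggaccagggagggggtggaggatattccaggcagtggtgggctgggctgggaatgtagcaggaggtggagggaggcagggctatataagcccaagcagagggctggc

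Tnni1 (chr1:135799171-135799420, plus strand): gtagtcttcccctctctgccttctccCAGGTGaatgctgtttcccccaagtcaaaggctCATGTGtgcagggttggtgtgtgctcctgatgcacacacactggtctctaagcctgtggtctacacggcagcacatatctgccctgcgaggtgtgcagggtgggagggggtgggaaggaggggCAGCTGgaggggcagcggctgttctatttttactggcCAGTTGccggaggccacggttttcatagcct

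Tnnt1 (chr7:4515976-4516225, minus strand): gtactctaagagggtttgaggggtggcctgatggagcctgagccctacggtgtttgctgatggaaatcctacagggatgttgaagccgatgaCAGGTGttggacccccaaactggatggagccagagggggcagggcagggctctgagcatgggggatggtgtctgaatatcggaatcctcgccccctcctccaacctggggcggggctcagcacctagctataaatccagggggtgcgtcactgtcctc

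Csrp3 (chr7:48848052-48848301, minus strand): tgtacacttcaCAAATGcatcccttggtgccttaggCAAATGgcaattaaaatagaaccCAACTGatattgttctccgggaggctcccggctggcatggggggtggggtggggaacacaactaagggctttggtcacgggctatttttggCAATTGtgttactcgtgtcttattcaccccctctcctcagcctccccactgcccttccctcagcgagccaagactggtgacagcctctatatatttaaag

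Ankrd2 (chr19:42035777-42036026, plus strand): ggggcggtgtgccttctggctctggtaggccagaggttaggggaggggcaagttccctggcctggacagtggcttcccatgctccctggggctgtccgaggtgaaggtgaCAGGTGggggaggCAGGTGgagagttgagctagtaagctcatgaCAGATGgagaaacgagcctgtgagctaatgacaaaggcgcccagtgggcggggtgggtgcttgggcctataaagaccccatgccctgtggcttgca

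All 10 genes had a promoter in the RefSeq table, and in 9 of them it began within 100 bases of the start of the counted gene. The exception was Myl2, whose listed start lies 7791 bases away. An E-box was found in 9 of the 9 windows, and in 66.2% of the 32851 windows in the table. Tnni1 and Csrp3 held 4 E-boxes each, Ankrd2 held 3, and Tnnc1, Myoz2 and Mb held 2 each. Tnnt1, Myl3 and Tpm3 held 1 each, and the mean over all windows was 1.16. The MCAT element (CATTCC on either strand), which TEAD factors bind, was found in Tnnc1 and Myl3, and in 12.6% of all windows. A TATA box (TATAAA on the sense strand) lay 30 bases before the start of Tnnt1 and 29 bases before that of Ankrd2, and occurred in 7.59% of all windows. The NFAT core (GGAAA on either strand) was found in 4 of the 9 windows and in 55.6% of all. A MEF2 site was found in Myoz2 and in 2.92% of all windows, and a CArG box in Myl3 and in 1.47%. Each motif was counted on its own, including where motifs overlap, and a match is a description of the letters only.

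Tnnc1 (chromosome 14, 31208312 to 31211711) encodes the calcium-binding subunit of slow troponin. It had 1.35, 2.91, 2.59 and 1.90 CPM in WT replicates 1 to 4, and 7.88, 3.20, 4.60 and 3.81 CPM in KL-/- replicates 1 to 4. Every KL-/- mouse lay above every WT mouse, although KL-/- replicate 2 was close to WT replicate 2. The mean increased from 2.19 ± 0.702 to 4.87 ± 2.09 CPM (log2 fold change 1.16 ± 0.32 SE, edgeR FDR = 0.0417). These values rest on 33 to 226 counts per mouse. Nisch lies on the opposite strand at this locus, with 0 exon bases in common.

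Tnni1 (chromosome 1, 135799421 to 135810989) encodes the inhibitory subunit, which holds back actin and myosin at rest. WT replicates 1 to 4 had 1.51, 2.82, 2.52 and 1.76 CPM, and KL-/- replicates 1 to 4 had 5.86, 4.58, 4.77 and 2.45 CPM. KL-/- replicate 4 lay below WT replicates 2 and 3, so the genotypes overlapped. The mean went from 2.15 ± 0.619 to 4.41 ± 1.43 CPM (log2 fold change 1.04 ± 0.29 SE, edgeR FDR = 0.0421).

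Tnnt1 (chromosome 7, 4504570 to 4515975) encodes the subunit that anchors troponin to tropomyosin. Levels were 3.02, 5.09, 5.11 and 4.81 CPM in WT replicates 1 to 4 and 11.5, 9.59, 6.05 and 6.90 CPM in KL-/- replicates 1 to 4. The genotypes did not overlap, and WT replicate 1 lay below the other 3 WT mice. From 4.51 ± 0.999 CPM in WT, the mean increased to 8.52 ± 2.52 CPM (log2 fold change 0.92 ± 0.23 SE, edgeR FDR = 0.0324).

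**Figure D1:**
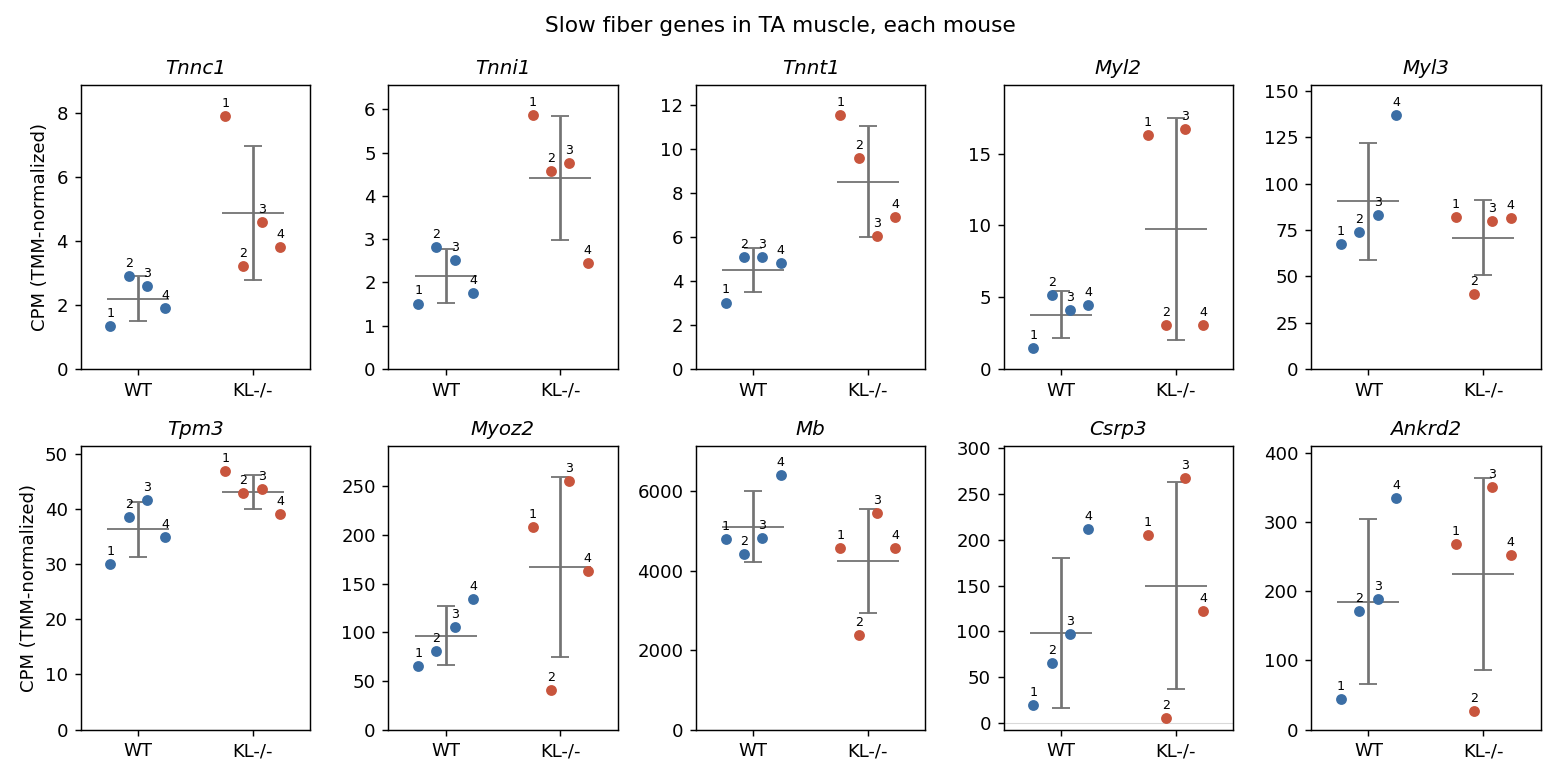
TMM-normalized CPM (y axis, linear from 0, a separate scale for each gene) of the 10 genes in each mouse, with WT in blue and KL-/- in red, replicate numbers beside the points, and the mean ± SD in gray (n = 4). All KL-/- mice lie above all WT mice for Tnnc1 and Tnnt1, whereas KL-/- replicate 2 is the lowest of the 8 mice for Myl3, Myoz2, Mb, Csrp3 and Ankrd2.

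The troponin calls depended on single mice, with the same direction throughout. Tnnc1 passed the FDR in 1 of the 8 fits that left out 1 mouse (without KL-/- replicate 2, FDR = 0.0208), and its FDR rose to as much as 0.0865 (without WT replicate 1). Tnni1 passed in 1 of 8 (without KL-/- replicate 4, FDR = 0.0256), with FDRs up to 0.0979 (without KL-/- replicate 3). Tnnt1 passed in 2 of 8, without KL-/- replicate 2 (FDR = 0.0440) and without KL-/- replicate 3 (FDR = 0.0328), and otherwise reached at most 0.0690 (without KL-/- replicate 1). Log2 fold changes in these edgeR fits ranged from 0.84 to 1.33 for Tnnc1, from 0.88 to 1.24 for Tnni1 and from 0.74 to 1.05 for Tnnt1. Without KL-/- replicate 3, the library of the other batch date, Tnnc1 had a log2 fold change of 1.19 (FDR = 0.0827) and Tnni1 of 1.00. When library totals replaced TMM factors, Tnnt1 passed (FDR = 0.0454), while Tnnc1 (FDR = 0.05003) and Tnni1 (FDR = 0.0514) did not. Each fit without a mouse holds 7 mice, and the calls among all genes ranged from 760 to 2765 in these fits.

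**Figure D2:**
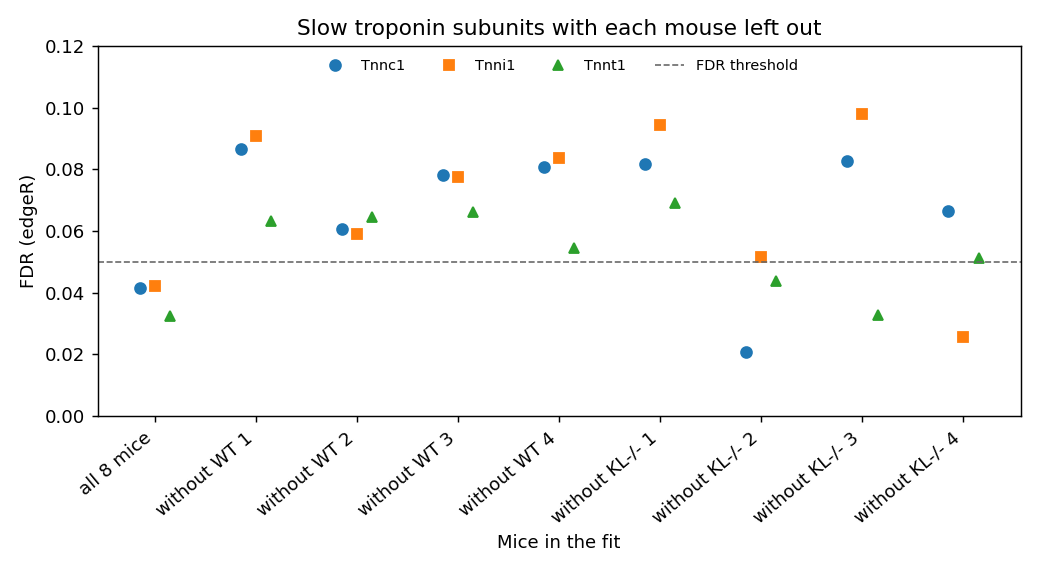
FDR from edgeR (y axis) of Tnnc1, Tnni1 and Tnnt1 with all 8 mice and with each mouse left out in turn (x axis). The dashed line is the FDR threshold of 0.05, below which all 3 genes lie with 8 mice. With 7 mice, Tnnc1 and Tnni1 lie below it once each and Tnnt1 does so without KL-/- replicate 2 or 3.

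The regulatory and the essential light chain of slow myosin behaved differently. Myl2 (chromosome 5, 122100980 to 122106854), the regulatory light chain whose phosphorylation tunes force, had 1.43, 5.18, 4.08 and 4.45 CPM in WT and 16.3, 3.05, 16.7 and 3.09 CPM in KL-/- replicates 1 to 4. KL-/- replicates 1 and 3 were high, while replicates 2 and 4 lay below 3 of the WT mice. The log2 fold change of 1.38 ± 0.61 (SE) was the largest of the 10 but did not pass (edgeR FDR = 0.154). It was 1.68 without KL-/- replicate 2 (FDR = 0.0628) and 1.00 without KL-/- replicate 3 (FDR = 0.349). Myl3 (chromosome 9, 110763681 to 110769794), the essential light chain, had 67.6, 73.7, 83.3 and 137 CPM in WT and 81.8, 40.6, 79.8 and 81.2 CPM in KL-/- replicates 1 to 4. KL-/- replicate 2 lay far below the other KL-/- mice, which lay between 79.8 and 81.8 CPM, and WT replicate 4 was the highest of all. Its log2 fold change was −0.35 ± 0.27 (SE, edgeR FDR = 0.387), or −0.15 without KL-/- replicate 2 and −0.41 without KL-/- replicate 3. The log2 ratio of Myl3 to Myl2 was 1.41 lower in KL-/- muscle, from 4.66 ± 0.743 to 3.25 ± 1.18, which did not pass a two-sided exact permutation test (p = 0.114, adjusted over 4 ratios among slow genes p = 0.457). The difference in this ratio was −1.57 without KL-/- replicate 2 and −1.08 without KL-/- replicate 3.

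Tpm3 (chromosome 3, 90072651 to 90100902) encodes slow alpha-tropomyosin and, from other promoters and exons, tropomyosins of the cytoskeleton, which counts per gene do not separate. WT replicates 1 to 4 had 30.1, 38.5, 41.7 and 35.0 CPM, and KL-/- replicates 1 to 4 had 46.8, 42.8, 43.5 and 39.1 CPM. The groups overlapped in KL-/- replicate 4, and the log2 fold change was 0.25 ± 0.10 (SE, edgeR FDR = 0.127), or 0.26 without KL-/- replicate 2 and 0.24 without KL-/- replicate 3. The mouse genome also has the copies Tpm3-rs7 and Tpm3-rs2, which were not among the counted genes, and reads shared with them make the level uncertain. Tpm3 varied least of the 10 genes, with a within-genotype SD of 0.161 on the log2 scale, compared with a median of 0.159 over all genes.

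Myoz2, a Z-disc protein of slow fibers that binds calcineurin, turned on 1 mouse. On chromosome 3 (123006206 to 123034987), it had 65.6, 81.0, 106 and 134 CPM in WT replicates 1 to 4 and 208, 40.7, 255 and 163 CPM in KL-/- replicates 1 to 4. Of the KL-/- mice, 3 lay above all WT mice and replicate 2 lay below all of them. With 8 mice the log2 fold change was 0.79 ± 0.45 (SE, edgeR FDR = 0.257), and without KL-/- replicate 2 it was 1.12 (edgeR FDR = 0.0136). Without KL-/- replicate 3 it was 0.51 (edgeR FDR = 0.524).

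Csrp3 and Ankrd2 differed more between mice of one genotype than between genotypes. Csrp3 (chromosome 7, 48830398 to 48848051) encodes muscle LIM protein, a Z-disc protein linked to stretch sensing. It had 20.3, 65.7, 97.0 and 212 CPM in WT replicates 1 to 4 and 205, 6.25, 267 and 122 CPM in KL-/- replicates 1 to 4. KL-/- replicate 2 held the lowest and KL-/- replicate 3 the highest value, 42.7-fold apart, and WT mice alone spanned 10.4-fold. The log2 fold change was 0.60 ± 0.88 (SE, edgeR FDR = 0.670), without KL-/- replicate 2 it was 1.01 (FDR = 0.260), and without KL-/- replicate 3 it was 0.17 (FDR = 0.927).

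Ankrd2 (chromosome 19, 42036038 to 42045110) encodes an ankyrin repeat protein that responds to stretch and binds titin. WT replicates 1 to 4 had 44.0, 171, 188 and 335 CPM, and KL-/- replicates 1 to 4 had 268, 26.8, 350 and 252 CPM. The lowest and highest mice were again KL-/- replicates 2 and 3, 13.1-fold apart. The log2 fold change was 0.28 ± 0.70 (SE, edgeR FDR = 0.809), it was 0.66 without KL-/- replicate 2, and its sign turned without WT replicate 1 (−0.045) and without KL-/- replicate 3 (−0.016). By SD within genotype, Csrp3 ranked 9 and Ankrd2 ranked 25 of the 12551 genes, at 2.02 and 1.5 on the log2 scale. Myl2 ranked 52 (SD 1.14) and Myoz2 ranked 119 (SD 0.903).

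Mb (chromosome 15, 77015487 to 77050668) encodes myoglobin, the oxygen store of oxidative fibers, and was by far the most abundant of the 10. Its level was 4790, 4404, 4812 and 6408 CPM in WT and 4558, 2391, 5445 and 4560 CPM in KL-/- replicates 1 to 4. KL-/- replicate 2 was again the lowest mouse, and the log2 fold change was −0.27 ± 0.23 (SE, edgeR FDR = 0.441), or −0.062 without that mouse and −0.41 without KL-/- replicate 3. Exons of Mb and of Apol6 on the opposite strand overlap by 62 bases, and how strand was used in the counting is not given in the sources used here. Mostly through Mb, the 10 genes together took 0.503% to 0.765% of counts in WT mice, and 0.530%, 0.244%, 0.618% and 0.4998% in KL-/- replicates 1 to 4.

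**Figure D3:**
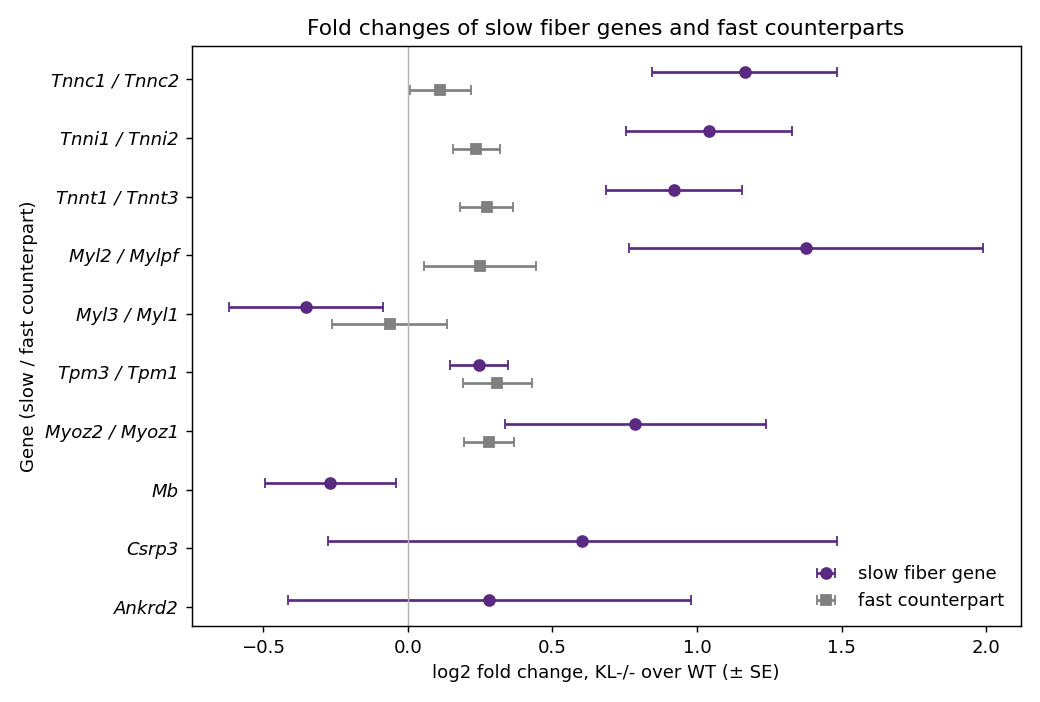
Log2 fold change, KL-/- over WT, with its SE (x axis) for the 10 slow fiber genes (circles) and the fast counterparts of 7 of them (squares). The slow troponins lie between 0.92 and 1.16 with their counterparts between 0.11 and 0.27 (Tnnc2, 0.11, was at −0.0061 when library totals replaced TMM factors), and the widest error bars belong to Csrp3, Ankrd2 and Myl2.

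By mean CPM per kb of exon, the slow troponins were the rarest of the 10 genes. In WT muscle, Tnni1 had 1.93 ± 0.555, Tnnc1 3.11 ± 0.999 and Tnnt1 4.38 ± 0.970 CPM per kb, followed by Myl2 with 5.98 ± 2.58 and Tpm3 with 10.9 ± 1.49. From Tnni1 to Myl2, the ranges of mean ± SD of neighbors in this order overlapped, and that of Tpm3 lay above that of Myl2. Myoz2, Myl3, Csrp3 and Ankrd2 followed with means of 83.8 to 168 CPM per kb, with overlapping ranges of mean ± SD, and Mb had 4076 ± 711. By mean, the slow troponins were also the rarest in KL-/- muscle, with 3.96 to 8.27 CPM per kb, and there Tpm3 (12.9 ± 0.942) lay below the mean of Myl2 (15.5 ± 12.2). That Myl2 mean rested on KL-/- replicates 1 and 3 (16.3 and 16.7 CPM), with 3.05 and 3.09 CPM in replicates 2 and 4. The order does not hold in every mouse.

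Each of 7 genes was then compared with its fast counterpart in the same mouse, to ask whether the slow version changed more than the fast one. Per kb, Tnnc1 made up 0.0339% of the Tnnc1 and Tnnc2 pair in WT and 0.0731% in KL-/- muscle. Tnni1 went from 0.0204% to 0.0360% of its pair with Tnni2, and Tnnt1 from 0.0348% to 0.0552% of its pair with Tnnt3. The highest share of a slow troponin in any mouse was 0.131%, for Tnnc1 in KL-/- replicate 1. The log2 ratio of slow to fast was higher in KL-/- muscle by 1.01 for Tnnc1, 0.77 for Tnni1 and 0.63 for Tnnt1. Genotypes overlapped in each ratio (two-sided exact permutation test, p = 0.0857 each, adjusted over 7 pairs p = 0.200). The smallest p that 4 against 4 mice allow is 0.0286. Without KL-/- replicate 2, the differences for Tnnc1, Tnni1 and Tnnt1 were 1.26, 0.75 and 0.59. Without KL-/- replicate 3, they were 0.99, 0.72 and 0.78.

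Myl2 made up 0.0532% of its pair with Mylpf in WT and 0.132% in KL-/- muscle, with 0.239% and 0.229% in KL-/- replicates 1 and 3 and 0.0268% and 0.0336% in replicates 2 and 4. The shares of Myl3 in the pair with Myl1 were 1.18% and 1.04%, and those of Tpm3 in the pair with Tpm1 were 0.254% and 0.249%. Myoz2 reached the largest share, 5.88% in WT and 7.88% in KL-/- muscle, of its pair with Myoz1. None of these 4 ratios passed (exact permutation tests, raw p = 0.429 to 0.857). No fast counterpart passed the FDR in edgeR either. Tnni2 had a log2 fold change of 0.24 (FDR = 0.0818), Tnnt3 of 0.27 (FDR = 0.0745) and Myoz1 of 0.28 (FDR = 0.0573). KL-/- replicate 2 was the highest of the 8 mice for Tnnc2, Tnni2, Tnnt3, Mylpf, Myl1 and Tpm1.

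**Figure D4:**
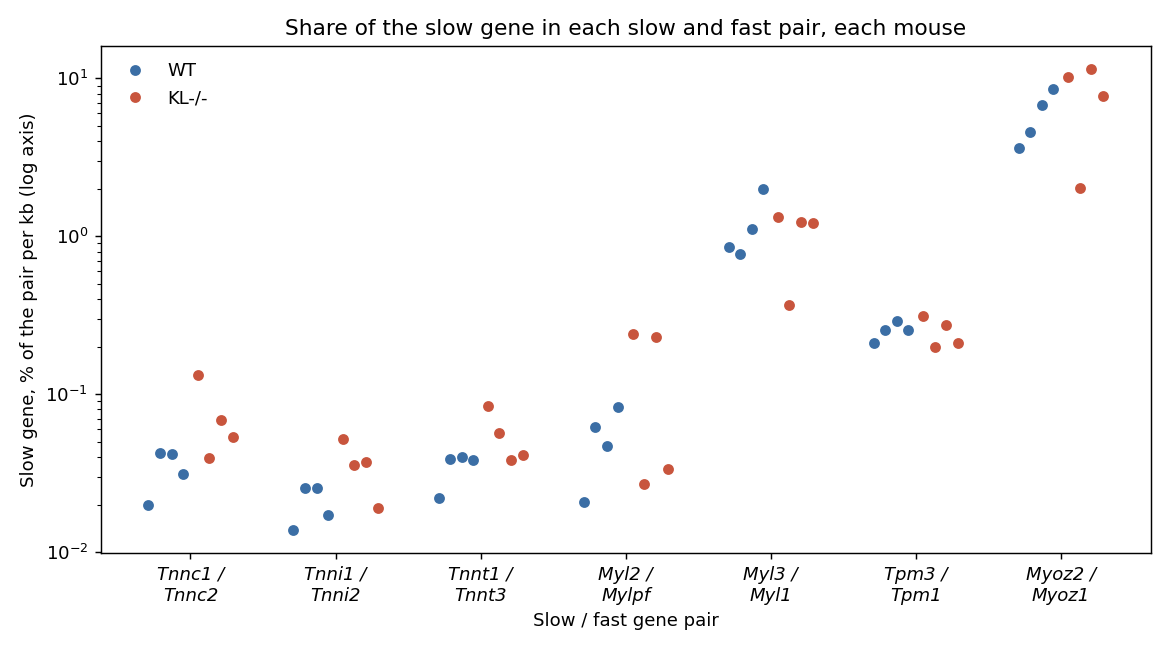
Share of the slow gene in each slow and fast pair, in percent of the summed CPM per kb (y axis, log scale), for 7 pairs (x axis) with 1 point per mouse, WT in blue and KL-/- in red. Troponin pairs lie at the bottom with KL-/- mice mostly above WT mice, and the low KL-/- point in the Myl3 and Myoz2 pairs is replicate 2.

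Different patterns across the 8 mice were seen among the 10 genes. They are described by the root mean square (RMS) difference between log2 CPM profiles, each centered on its mean over the 8 mice, among the 11045 genes that averaged 1 or more in log2 CPM. The 3 slow troponins were within 0.322 to 0.361 of one another. The genes nearest to Tnni1 were Igf1r (0.242), Chrna1 (0.305) and Lox (0.311), and those nearest to Tnnt1 were Igf1r (0.242), Ankrd1 (0.249) and Arid5a (0.250). Csrp3 and Ankrd2 differed by 0.524 from each other and by 1.20 to 1.81 from the troponins. For both, the nearest of all genes was Myh2, the heavy chain of oxidative type IIa fibers, at 0.499 from Csrp3 and 0.435 from Ankrd2. Hspb7 was also among the nearest 3 of both (0.849 and 0.460). KL-/- replicate 2 was far below the mean of the 8 mice in Csrp3 (−3.59), Ankrd2 (−2.51) and Myh2 (−2.94). The RMS differences were not computed without that mouse.

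Myh2 had 1169, 1662, 2486 and 4436 CPM in WT replicates 1 to 4 and 5252, 292, 5441 and 3445 CPM in KL-/- replicates 1 to 4. Lowest and highest in WT were replicates 1 and 4, as for Csrp3 and Ankrd2, and lowest and highest in KL-/- were replicates 2 and 3. Its log2 fold change was 0.57 ± 0.70 (SE, edgeR FDR = 0.614). Myh7 followed another course, with 1.84, 8.51, 10.03 and 2.44 CPM in WT and 40.9, 9.54, 3.77 and 2.75 CPM in KL-/- replicates 1 to 4, and a log2 fold change of 1.34 ± 0.85 (SE, edgeR FDR = 0.307). Of the 10 genes, 6 had a smaller RMS difference to Myh2 than to Myh7, namely Myl2, Myl3, Myoz2, Mb, Csrp3 and Ankrd2. The other 4, the troponins and Tpm3, were nearer to Myh7, although by RMS differences of 0.984 to 1.22. Myh4, the heavy chain of fast type IIb fibers, was nearer than either to Tnnc1 (0.629), Tnni1 (0.488), Tnnt1 (0.415), Tpm3 (0.228), Myl3 (0.691) and Mb (0.637). Genes that vary little have small RMS differences in general, and the within-genotype SD of Myh4 was 0.196 on the log2 scale. The comparison of these myosins was made after the values had been seen, and all 8 profiles share the same libraries. The 10 genes thus did not share one course across these mice, and the name slow fiber genes is used for their known expression.

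**Figure D5:**
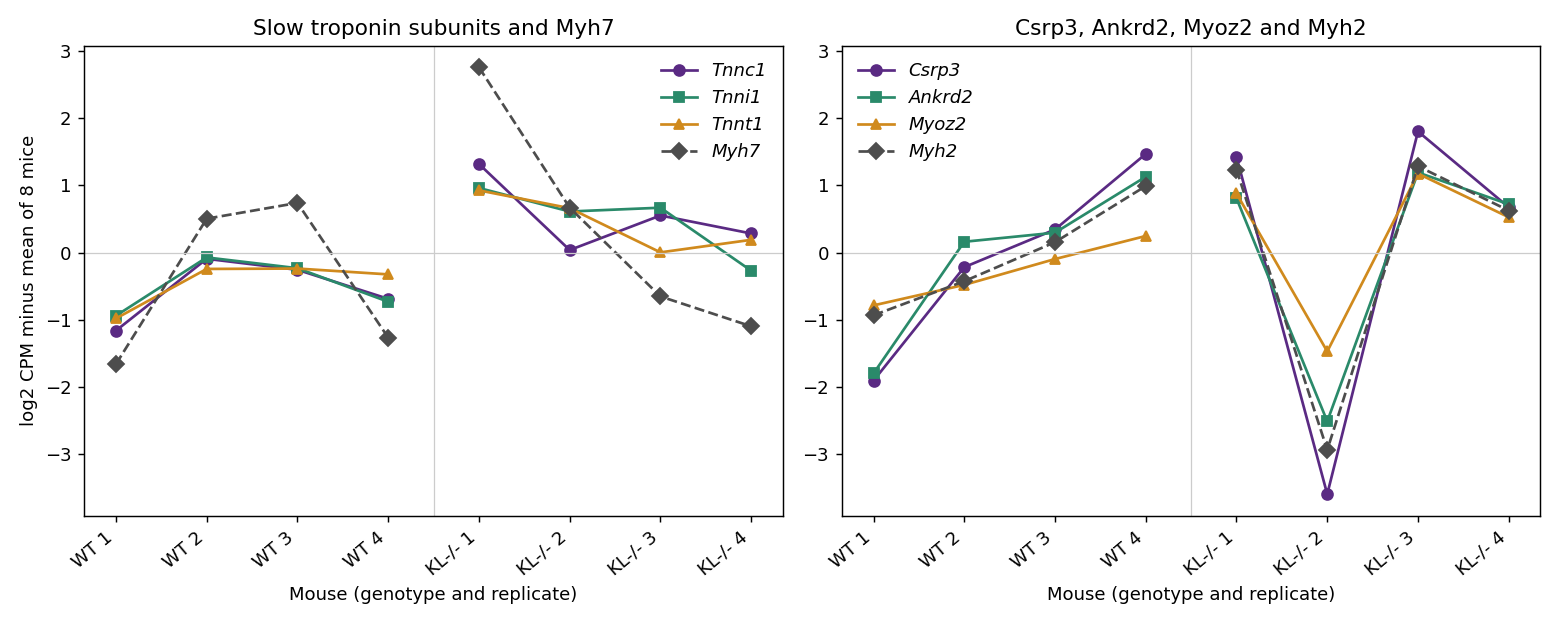
Log2 CPM minus the mean over the 8 mice (y axis) in each mouse (x axis), for the slow troponins with Myh7 (left) and for Csrp3, Ankrd2 and Myoz2 with Myh2 (right), on the same scale. Lines only join the points of a gene within a genotype, and the drop in KL-/- replicate 2 is shared by Csrp3, Ankrd2, Myoz2 and Myh2 but not by the troponins.

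Other genes of the slow program and of the sarcomere gave the context. Of 12 slow fiber partners, 2 rose and 0 fell (median log2 fold change 0.27). They were Sln, the sarcolipin that regulates the calcium pump, with a log2 fold change of 2.19 ± 0.36 (SE, edgeR FDR = 0.00768), and Myh7b, a slow-type heavy chain gene, with 1.26 ± 0.23 (SE, edgeR FDR = 0.00993). Both had no overlap between genotypes and passed in all 8 fits that left out 1 mouse. The Sln transcript was rare, so its fold change started from a very low level. Its CPM ranged from 0.327 to 0.879 across the WT mice and from 1.885 to 4.352 across the KL-/- mice. The lowest of these values, 0.327 CPM, was that of WT replicate 1, whose floor of 3 counts lay at 0.1255 CPM. Among 14 fast counterparts and fast sarcomere genes, 2 rose and 0 fell (median 0.26). Actn3, the fast Z-disc actinin, had a log2 fold change of 0.67 (edgeR FDR = 0.00555). Atp2a1, the fast calcium pump, had 0.35 (edgeR FDR = 0.0263) and passed in 3 of the 8 fits.

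Z-disc and stretch partners of Myoz2, Csrp3 and Ankrd2 numbered 17, of which 2 rose and 0 fell (median 0.16). Titin (Ttn) had a log2 fold change of 0.44 (edgeR FDR = 0.0291, passed in 3 of 8 fits) and its cap Tcap had 0.46 (edgeR FDR = 0.0339, passed in 1 of 8 fits). Of 24 regulators of the slow program, 3 rose and 3 fell (median −0.071). Ppp3ca, the catalytic subunit of calcineurin, rose by 0.41 on the log2 scale (edgeR FDR = 0.00768), as did Hdac5 by 0.32 (FDR = 0.0263) and Tbx15 by 0.28 (FDR = 0.0446). Nfatc2, a factor that calcineurin activates, fell by 0.56 (edgeR FDR = 0.00852), and Tead1 fell by 0.33 (FDR = 0.0382). Ppp3ca and Nfatc2 passed in all 8 fits that left out 1 mouse, Hdac5 in 2, and Tbx15 and Tead1 in 1 each. Tbx15 and Tead1 were named after their values had been seen.

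Of 12 genes of oxygen and fatty acid handling beside Mb, 2 rose and 1 fell (median −0.062). Slc27a1, a fatty acid transporter, had a log2 fold change of 0.47 (edgeR FDR = 0.0158, passed in 7 of 8 fits), and Cox6a2, a subunit of cytochrome oxidase in muscle, had 0.36 (edgeR FDR = 0.0433, passed in 1 of 8). Hmox1, which breaks down heme, fell by 0.61 (edgeR FDR = 0.0489, passed in 1 of 8).

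Markers of other cell types differed between the genotypes beside the slow troponins. Of 3 muscle spindle genes, Myh7b and Myh6 rose and Egr3 did not pass (edgeR FDR = 0.0770). Their sum was 5.06 to 9.72 CPM in WT and 17.3 to 31.0 CPM in KL-/- muscle. Egr3 had 14.4 CPM in KL-/- replicate 4 and 1.05 to 2.15 CPM in the other KL-/- mice. Myh7b is also counted among the slow fiber partners above. Which cells or fibers the Myh6 and Myh7b transcripts came from was not tested. Of the 6 genes listed for heart, 1 was among the counted genes, Tnnt2, which immature muscle fibers also express, with 1.31 to 3.05 CPM in WT and 4.56 to 6.92 CPM in KL-/- muscle (log2 fold change 1.19, edgeR FDR = 0.0184). The heart list did not include Myh6, which was placed with the spindle genes (log2 fold change 1.20, edgeR FDR = 0.00317). Nppa, Nppb, Tnni3, Myl7 and Mybpc3 were not among the counted genes. Schwann cell genes rose in 2 of 4 (sum 50.8 to 91.6 CPM in WT and 95.2 to 116 CPM in KL-/- muscle), and smooth muscle genes in 1 of 4 (77.7 to 102 and 91.1 to 144 CPM). Endothelial genes fell in 1 of 3 (324 to 492 and 291 to 322 CPM), macrophage genes in 1 of 4 (13.1 to 28.4 and 7.29 to 16.1 CPM) and fibroblast genes in 1 of 3 (429 to 1271 and 221 to 619 CPM). Adipocyte genes were changed in 0 of the 2 counted (5.87 to 21.8 and 4.48 to 57.4 CPM), as was Alas2, the red blood cell gene counted of 4 (3.35 to 9.58 and 3.07 to 9.16 CPM). The part of these cells in the slow troponin values was not tested.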

How the data were processed

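RNA was sequenced from TA muscles of 4 WT and 4 KL-/- mice, with 100 ng of RNA per library. The submitters' processing notes name FastQC, STAR, featureCounts, edgeR and the mm10 build. The deposited values are counts per gene without normalization, which the authors had already limited to expressed genes, so a default low-count filter removed none. The annotation version and the use of strand are not given in the sources used here. Genotypes and replicate numbers come from the labels. 0 value columns were left without a sample.

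Counts were fitted in R 4.3.3 with edgeR 4.0.16 over all 12551 genes (TMM factors, genotype as the only term, estimated dispersions, quasi-likelihood test, Benjamini-Hochberg adjustment, FDR under 0.05). SEs were taken from the test statistic. Ratios used counts with a pseudocount of 0.5, and their p-values are two-sided exact permutation tests over 70 relabelings. For profiles, the prior count of log2 CPM was 2. Exon lengths and gene positions are those deposited with the counts on mm10. Overlapping genes and gene copies were looked up in GENCODE, and promoters are from RefSeq. The fit was tested on simulated data with 200 changed genes.

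The genes, lists and comparisons were chosen with earlier results of these data known. Named genes are the 10 members, Myh7, the fast counterpart of 7 members, up to 4 passing genes per list by smallest FDR, and the 3 nearest profiles of 4 members. Tbx15 and Tead1 were named outside this rule, after their values had been seen. A list gene that entered the counts is not reported here on its own. Nothing in the labels says that a replicate number marks a shared litter. Deviations of same-numbered mice correlated at −0.368 to 0.181, which does not decide whether they were paired. Alternatives were RLE factors, library totals, DESeq2 1.42.0, the likelihood ratio test, limma-voom (limma 3.58.1), a minimum of 10 counts in every sample, no filter, the replicate block, ratios without a pseudocount or with another fast counterpart, and each mouse left out in turn. Depth of 20860262 to 29273758 counts per library leaves counting error largest in Tnnc1, Tnni1 and Myl2. SEs and SDs include differences between mice, whereas floors cover counting error only.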

Additional observations from a re-analysis of the deposited data

Results flagged for a closer look

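In 5 of 42 groups of 4 mice tested, 1 mouse lay far from the other 3, by the gap to its nearest neighbor divided by the range of the group. Chance alone flags about 1 in 20 groups, and these groups share mice and genes. For Myl3 in KL-/- muscle, replicate 2 lay below the others with a gap of 0.964 of the range of log2 CPM, and for Ankrd2 in KL-/- muscle the same mouse lay below with 0.872. The log2 ratio of Myl3 to Myl1 in KL-/- muscle had a gap of 0.928, also with replicate 2 lowest. For Tnnt1 in WT muscle, replicate 1 lay below the others with a gap of 0.883, and the log2 ratio of Tnnt1 to Tnnt3 in WT muscle had a gap of 0.908 with the same mouse lowest.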

How the results depend on the processing

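Of the 10 genes, 3 passed the FDR as higher and 0 as lower with edgeR. Scaling by library totals alone shifted the median over all genes from −0.016 to −0.13 (log2) and left 1 (Tnnt1), and with the replicate block 0 passed. Same-numbered mice had deviations that correlated at −0.146, 0.181, −0.368 and 0.017. Whether they share more than a number was not tested. The block moved the calls among all genes from 1715 to 629. Without 1 mouse, 0 to 3 of the 10 passed. Tnni1 also missed the FDR with limma-voom (0.0615), whereas DESeq2 gave 0.00494 for Tnnc1, 0.00625 for Tnni1 and 0.00228 for Tnnt1. Slow to fast ratios without overlap numbered 0, with 1 in the replicate block (pairwise differences of 1 sign) and 0 to 1 without 1 mouse, and those among slow genes numbered 0, with 1 in the replicate block and 0 to 1 without 1 mouse. Atp2a1, Tcap, Ttn, Hdac5, Tbx15 and Cox6a2 kept their direction but not their call with library totals (edgeR FDR = 0.0523 to 0.147). Directions of small differences turned. Without 1 mouse, the Ankrd2 log2 fold change ranged from −0.045 to 0.74, and log2 ratio differences ranged from −0.43 to 0.20 for Myl3 to Myl1, −0.16 to 0.059 for Tpm3 to Tpm1, −0.016 to 0.86 for Myoz2 to Myoz1, −0.33 to 0.056 for Tnni1 to Tnnc1 and −0.15 to 0.42 for Csrp3 to Ankrd2. With Tpm2 as counterpart, the difference for Tpm3 was 0.15. The cause was not tested. Depth limits the slow troponins and Myl2, with 33 to 467 counts per mouse.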
